A study of Mus musculus with 6 samples.

Results

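Expression of 42 genes for neuropeptide and peptide hormone receptors and their accessory proteins was measured in the microdissected arcuate nucleus (ARC) of adult female mice. The genes were taken by symbol, from a list of G protein-coupled receptors for peptides outside the kisspeptin, neurokinin B, dynorphin, opioid, melanocortin and neuropeptide Y systems, and all 42 were among the 24015 gene symbols of the count tables. Controls were 3 Esr1fl/fl females, which carry the floxed *Esr1* alleles without Cre, and mutants were 3 Esr1fl/fl;Nkx2-1-Cre females. By the sample labels every animal was on a mixed CD-1, 129P2 and C57BL/6 background. The methods name only CD-1 and 129P2 for this line. By the methods the animals were fed without restriction and were 11 to 20 weeks old. *Esr1* encodes estrogen receptor alpha (ERα). The Nkx2-1 promoter drives Cre from development onward and across the medial basal hypothalamus, not the ARC alone, and no group carried Cre without floxed alleles. The comparison asked which receptor transcripts differ in level when ERα is missing from this region.

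Most peptide receptors sit in the plasma membrane and signal through G proteins, which raise or lower cyclic AMP or release calcium from internal stores. Receptor activity-modifying proteins (RAMPs) are single-pass membrane proteins that pair with the calcitonin receptor or with the calcitonin receptor-like receptor and set which peptides of the calcitonin family the pair can bind. In the ARC, which borders the median eminence and is reached by circulating hormones, such receptors are known for carrying signals on feeding, growth and reproduction from the gut, the pituitary axis and other hypothalamic nuclei.

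Promoter sequence is shown for the 4 genes whose genotype difference passed the threshold with DESeq2 (*Oxtr*, *Nmbr*, *Nmur2* and *Rxfp2*). Each line holds the 250 bases before the RefSeq transcription start, 5′ to 3′ on the strand of the gene, from assembly GRCm38.p6. Capitals mark AGGTCA, the half-site of the estrogen response element, searched on both strands. The windows are chr6:112489826-112490075 on the minus strand for *Oxtr*, chr10:14759697-14759946 on the plus strand for *Nmbr*, chr11:56040988-56041237 on the minus strand for *Nmur2* and chr5:150018425-150018674 on the plus strand for *Rxfp2*.
Oxtr: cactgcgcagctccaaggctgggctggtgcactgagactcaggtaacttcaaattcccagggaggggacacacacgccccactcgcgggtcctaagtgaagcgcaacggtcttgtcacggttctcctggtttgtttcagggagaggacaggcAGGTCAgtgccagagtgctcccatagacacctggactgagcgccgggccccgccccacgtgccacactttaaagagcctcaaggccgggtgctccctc
Nmbr: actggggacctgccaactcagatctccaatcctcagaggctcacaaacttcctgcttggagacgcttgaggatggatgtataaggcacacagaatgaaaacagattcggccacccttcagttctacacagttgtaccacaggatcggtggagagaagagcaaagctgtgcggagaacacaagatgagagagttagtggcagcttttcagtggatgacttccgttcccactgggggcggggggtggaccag
Nmur2: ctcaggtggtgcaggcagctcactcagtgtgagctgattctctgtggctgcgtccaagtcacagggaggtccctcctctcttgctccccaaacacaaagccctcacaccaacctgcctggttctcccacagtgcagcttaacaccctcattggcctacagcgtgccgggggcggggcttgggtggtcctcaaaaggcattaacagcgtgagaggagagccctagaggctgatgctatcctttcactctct
Rxfp2: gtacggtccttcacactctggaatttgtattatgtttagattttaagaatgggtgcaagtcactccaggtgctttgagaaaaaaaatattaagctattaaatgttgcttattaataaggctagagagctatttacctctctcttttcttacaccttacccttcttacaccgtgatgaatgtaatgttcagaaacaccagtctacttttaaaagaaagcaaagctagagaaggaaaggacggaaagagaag
In *Oxtr* the half-site begins 98 bases before the start, and the letters AGGTCA are absent from the other 3 windows. RefSeq promoters of 250 bases before to 50 after the start were found for 32 of the 42 genes, 35 promoters in all. AGGTCA stood in 5 of the 35 (14.3%), those of *Oxtr*, *Nmbr*, *Prokr2*, *Hcrtr1* and *Hcrtr2*, against 16.3% of all 32851 promoters of this length. In *Nmbr* it lies after the start and outside the printed bases. The full palindromic element, GGTCA and TGACC with 3 bases between them, stood in 0 of the 35 and in 0.07% of all promoters, and the cyclic AMP response element TGACGTCA in 0 of the 35 and in 1.79% of all. These matches describe letters only.

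Libraries held between 11792440 and 17877137 counts on genes, and levels are given in CPM, counts divided by the size of each library, adjusted with TMM factors, and put on one common scale. At these depths 3 counts correspond to 0.175 to 0.248 CPM, a floor that covers counting error only. Mutants were tested against controls with edgeR's quasi-likelihood test for the 15236 genes left by its filter on low counts, and a gene was called where its Benjamini-Hochberg adjusted p-value over those genes was under 0.05. *Esr1* was at 64.5, 57.5 and 48.5 CPM in controls 1, 2 and 3 and at 11.8, 9.55 and 7.06 CPM in the mutants, a log2 fold change of -2.59 (SE 0.18, adjusted p = 0.000884, edgeR). *Greb1*, a gene known to respond to estrogen, was lower in the mutants (-1.50, SE 0.15, adjusted p = 0.00387, edgeR), and *Pgr*, the progesterone receptor, was at 110, 123 and 117 CPM in controls against 64.1, 80.9 and 80.3 CPM in mutants (-0.64, SE 0.10, adjusted p = 0.0567, edgeR). *Esr2*, the other estrogen receptor, stayed between 0.067 and 0.533 CPM and was not tested. Arcuate neuron markers summed to between 1944 and 2070 CPM in controls and between 1900 and 2435 CPM in mutants. Of these 12 genes, 10 had a positive log2 fold change and 4 were higher in all mutants. The list holds *Kiss1* and *Pdyn*, which the paper describes as repressed by estrogen and reports as elevated in mutants of this line by qPCR. *Sst*, a large part of these sums, was the 1 gene lower in all mutants. Markers of the neighbouring ventromedial nucleus summed to between 88.7 and 191 against 92.9 and 256 CPM. Those of the lateral hypothalamus, which share *Cartpt* with the arcuate list, summed to 270 to 324 against 358 to 451 CPM, without overlap. All 5 of these genes had a positive log2 fold change, but only 1 was higher in all mutants. *Hcrt* and *Pmch* on this list overlapped, at 0.200 to 1.45 and 0.603 to 8.61 CPM over all samples. Sums for the dorsomedial, suprachiasmatic and paraventricular lists overlapped between the genotypes. Markers of oligodendrocytes were higher in all mutants for 10 of 10 genes (sums of 668 to 1253 CPM in controls and 1626 to 1790 CPM in mutants), and those of microglia for 6 of 10 (309 to 322 against 392 to 427 CPM). None of the listed markers was at 0 in all samples, and the part of these shifts in the values below was not tested.

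*Oxtr*, *Nmbr* and *Galr1*, the receptors for oxytocin, neuromedin B and galanin, were higher in all 3 mutants than in any control, by 1.49-, 2.56- and 2.03-fold. *Nmur2*, *Rxfp2*, *Cckar*, *Brs3* and *Agtr1a*, which bind neuromedin U and S, insulin-like peptide 3, cholecystokinin, an unknown peptide and angiotensin II, were lower in all 3 mutants, at between 0.43 and 0.67 of the control level. No receptor gene passed the adjusted threshold in edgeR's quasi-likelihood test, and of all tested genes 18 did (0.118%). Of the 42 receptor genes, 37 passed the filter on low counts, and *Galr2*, *Galr3*, *Trhr2*, *Ghrhr* and *Gipr* did not. The genes were chosen with earlier results of these data known, so the shares that follow are descriptions and no test of the list. Unadjusted p-values under 0.05 were found for 10 of the 37 (27.0%), 5 higher and 5 lower in the mutants, against 8.85% of all tested genes, 4.84% higher and 4.01% lower. The genotypes did not overlap in 11 of the 37 (29.7%), 5 higher and 6 lower, against 15.8% of all tested genes, of which 7.88% were higher and 7.88% lower. DESeq2, the tool named in the methods, gave an adjusted p-value for 38 of the 42 and called 4, with *Oxtr* and *Nmbr* higher and *Nmur2* and *Rxfp2* lower. Its share over all genes with an adjusted p-value was 1.26%, 0.642% higher and 0.622% lower. With limma voom 0 of the 37 passed, against 0.0919% of all genes, with 11 under 0.05 before adjustment (29.7% against 9.33%). The median log2 fold change of the 37 was -0.068 and the median size of change 0.30, against 0.0036 and 0.13 over all tested genes. These medians were not matched for level, and low counts widen log2 fold changes. Of the 42 genes, 22 had a mean of 1 to 10 CPM and 5 were under 1. Fewer cells of a type and less RNA per cell cannot be told apart in bulk tissue, and an exact permutation test of 1 gene in 3 against 3 animals, two-sided, has 0.1 as its smallest p-value.

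**Figure D1:**
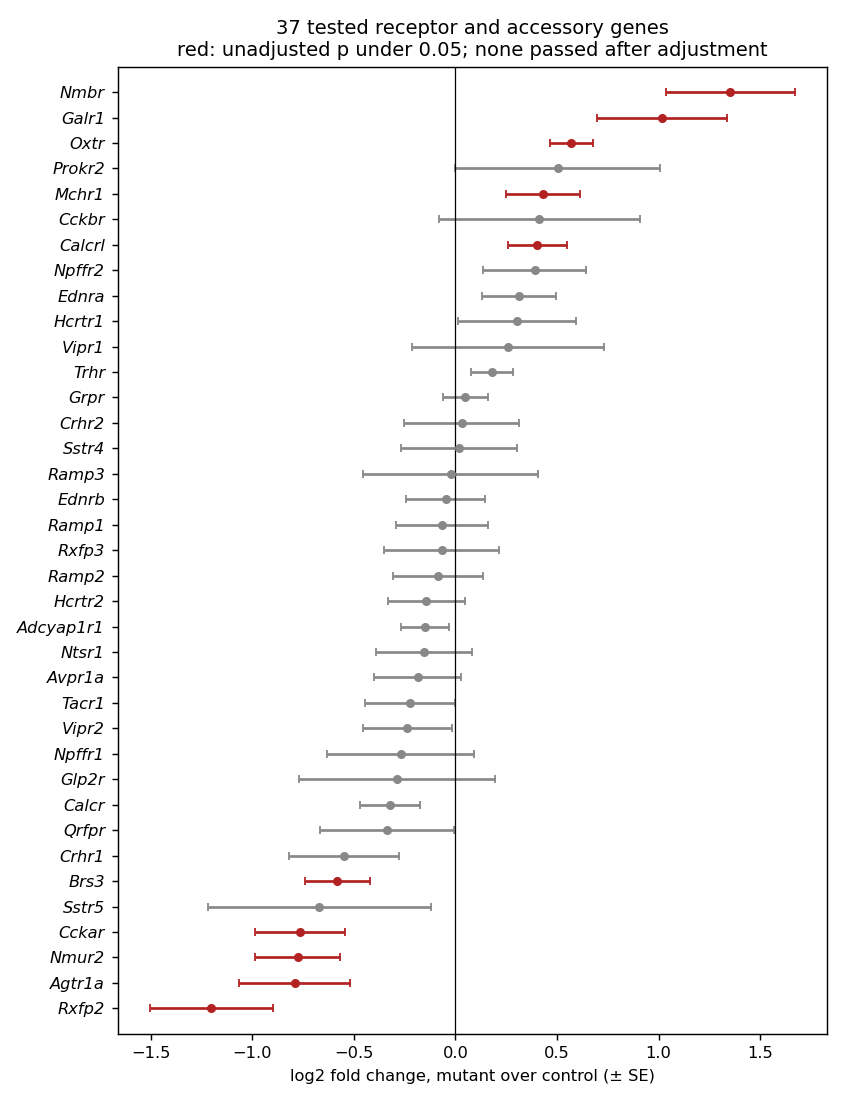
Log2 fold change of mutant over control for the 37 tested receptor and accessory genes, with bars of 1 standard error from edgeR's fit and the genes with an unadjusted p-value under 0.05 in red. Points run from -1.20 for *Rxfp2* to 1.35 for *Nmbr*, and the 10 red genes lie on both sides of 0, 5 higher and 5 lower.

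The neurohypophysial hormone receptors were *Oxtr*, which binds oxytocin, and *Avpr1a*, the V1a receptor of vasopressin. *Oxtr* (chromosome 6, 112423678 to 112440884 on the minus strand of NCBIM37) was at 30.5, 36.6 and 32.6 CPM in controls 1, 2 and 3 and at 53.2, 46.5 and 48.6 CPM in mutants 1, 2 and 3. The lowest mutant lay well above the highest control. Means were 33.2 ± 3.13 and 49.4 ± 3.44 CPM (SD, n = 3 each), a log2 fold change of 0.57 (SE 0.10). The adjusted p-value was 0.0706 with edgeR's quasi-likelihood test and 0.00351 with DESeq2. Across the fits that left out 1 sample the log2 fold change lay between 0.51 and 0.65. *Avpr1a* overlapped between the genotypes, at 8.61 to 11.7 CPM in controls and 7.10 to 12.1 CPM in mutants (-0.19, SE 0.22).

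The bombesin receptor family has 3 members in the mouse, and they differed in direction. *Nmbr* (chromosome 10, 14480027 to 14490389, plus strand), the neuromedin B receptor, was at 1.41, 3.26 and 1.58 CPM in controls and at 5.36, 5.21 and 5.60 CPM in mutants. Control 2 was the highest control, and every mutant was above it. The means were 2.08 ± 1.02 and 5.39 ± 0.192 CPM (SD, n = 3 each), with a log2 fold change of 1.35 (SE 0.32, adjusted p = 0.176 with edgeR and 0.0320 with DESeq2). Exons of *Nmbr* overlap those of *B230364G03Rik* on the opposite strand by 138 bases, and since the counting is not stated to use strand, reads there cannot be told apart.

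*Brs3* (chromosome X, 54296251 to 54301935, plus strand) encodes an orphan receptor whose loss is known to make mice obese. It was at 12.1, 10.7 and 10.4 CPM in controls and at 7.43, 6.60 and 8.19 CPM in mutants, so that all mutants lay below all controls (-0.58, SE 0.16, adjusted p = 0.267, edgeR). *Grpr*, the receptor for gastrin-releasing peptide, was at 33.5, 35.9 and 42.9 CPM in controls and at 39.4, 40.02 and 36.8 CPM in mutants. The mutants lay within the range of the controls (log2 fold change 0.050, SE 0.11). Within a library, the ratio of *Nmbr* to *Brs3* counts was 0.116, 0.304 and 0.152 in controls and 0.722, 0.791 and 0.683 in mutants. The ratio does not depend on library scaling. That every mutant exceeded every control in it follows from *Nmbr* being higher and *Brs3* lower in all mutants. This pair and the others below for which a ratio is given were chosen after their values were seen, and the ratios are given as descriptions.

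**Figure D2:**
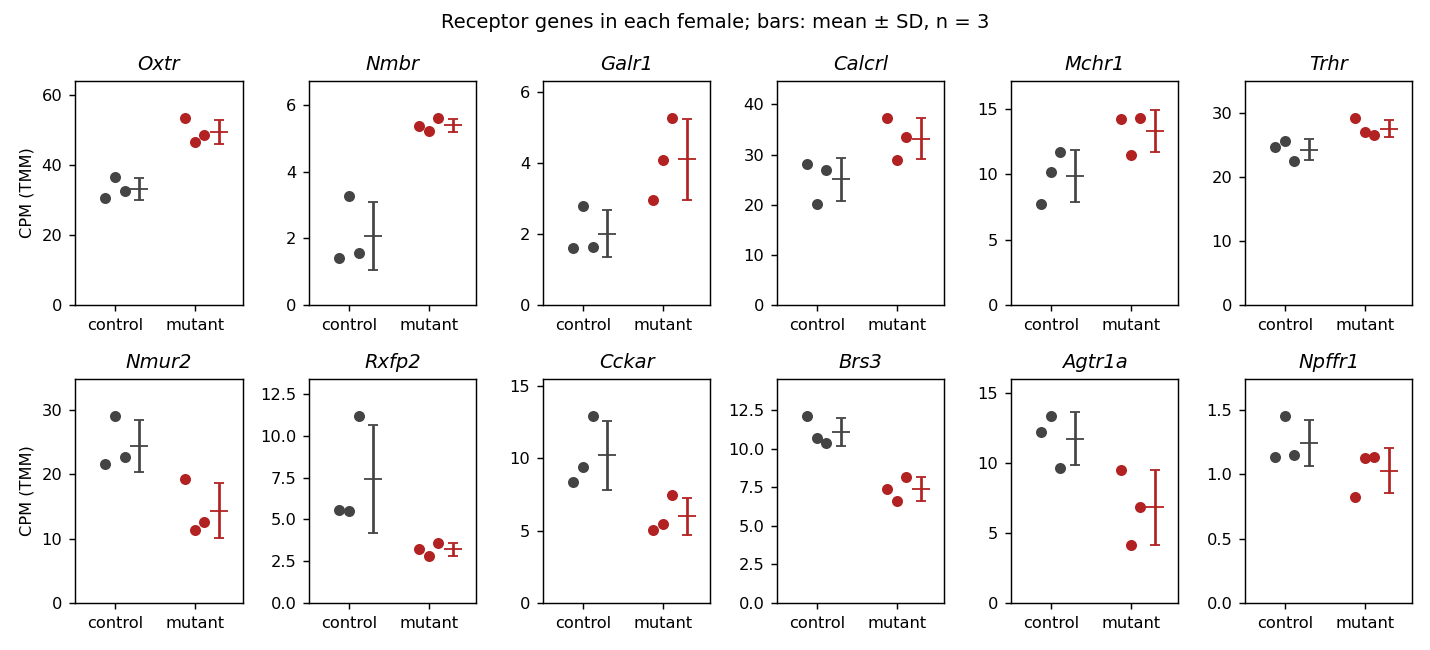
CPM after TMM scaling of 12 receptor genes in each female, with controls in grey, mutants in red and bars for the mean ± SD (n = 3). Each panel starts at 0 and has its own scale. Genes of the upper row were higher in mutants and genes of the lower row lower, and only *Mchr1* shows an overlap between the genotypes.

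Galanin acts through 3 receptors, of which *Galr1* and *Galr3* mainly lower cyclic AMP and *Galr2* mainly releases calcium. *Galr1* was at 1.61, 2.79 and 1.65 CPM in controls and at 2.97, 4.08 and 5.26 CPM in mutants, from 24, 48 and 23 against 36, 65 and 79 counts. Mutant 1 lay just above control 2, and the others were further apart (log2 fold change 1.02, SE 0.32, adjusted p = 0.353, edgeR). *Galr2*, which did not pass the filter, was at 19, 20 and 9 counts in controls and 6, 9 and 4 counts in mutants. In CPM the controls were at 1.27, 1.16 and 0.646 and the mutants at 0.495, 0.565 and 0.266, with no overlap. In the fit that kept every gene with a count, its log2 fold change was -1.22 (SE 0.57, adjusted p = 0.669, edgeR). *Galr3* had 12, 8 and 6 counts in controls and 1, 3 and 5 in mutants, again with no overlap (-1.43, adjusted p = 0.765 in the same edgeR fit). The ratio of *Galr1* to *Galr2* counts was 1.26, 2.40 and 2.56 in controls and 6.00, 7.22 and 19.8 in mutants, on counts as low as 4 for *Galr2*.

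*Nmur2* (chromosome 11, 55838489 to 55854512, minus strand) is the brain receptor for neuromedin U and neuromedin S, peptides known for reducing food intake. It was at 21.6, 29.1 and 22.7 CPM in controls and 19.2, 11.3 and 12.5 CPM in mutants. Mutant 1 came close to controls 1 and 3, and mutants 2 and 3 were well below. Means were 24.4 ± 4.06 and 14.4 ± 4.26 CPM (SD, n = 3 each), a log2 fold change of -0.78 (SE 0.21), with adjusted p-values of 0.275 from edgeR and 0.0357 from DESeq2. Leaving out 1 sample at a time gave values from -1.04, without mutant 1, to -0.63.

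Of the relaxin family receptors, *Rxfp2* (chromosome 5, 150821250 to 150884759, plus strand) binds insulin-like peptide 3 and *Rxfp3* binds relaxin-3. *Rxfp2* was at 5.56, 5.53 and 11.2 CPM in controls and at 3.22, 2.83 and 3.60 CPM in mutants. Control 3 was far above the other controls, and all mutants lay below all controls. Its log2 fold change was -1.20 (SE 0.30), with adjusted p-values of 0.219 from edgeR and 0.0375 from DESeq2, and it was -0.79 without control 3 (adjusted p = 0.439, edgeR). The precursor of its ligand, *Insl3*, named here after its counts were seen, had 0 counts in all 6 libraries. It shares 404 of its 623 exonic bases with *Jak3* on the same strand, where reads may not have been counted. The 0 may rest on the other bases alone, and sets only a loose limit on its level. *Rxfp3* overlapped, at 3.35 to 6.52 CPM in controls and 3.88 to 6.13 CPM in mutants (-0.068, SE 0.28).

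Cholecystokinin, a satiety peptide of gut and brain, binds *Cckar* and *Cckbr*, and the latter is the commoner form in brain. *Cckar* (chromosome 5, 54089015 to 54098943, minus strand) was at 8.38, 9.37 and 12.9 CPM in controls and at 5.03, 5.47 and 7.46 CPM in mutants. The highest mutant was below the lowest control (-0.76, SE 0.22, adjusted p = 0.303, edgeR). *Cckbr* varied widely within each genotype, at 6.37, 12.7 and 14.99 CPM in controls and 6.68, 19.2 and 19.3 CPM in mutants. Control 1 and mutant 1 were both low in it (0.41, SE 0.49). The ratio of *Cckbr* to *Cckar* counts, at 0.760 to 1.36 in controls and 1.33 to 3.51 in mutants, overlapped between the genotypes.

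*Agtr1a* (chromosome 13, 30428310 to 30474736, plus strand), the main type 1 angiotensin II receptor of rodents, was at 12.2, 13.3 and 9.61 CPM in controls and at 9.49, 4.15 and 6.86 CPM in mutants. Mutant 1 lay just under control 3, and mutant 2 was lowest. The log2 fold change of -0.79 (SE 0.27, adjusted p = 0.417, edgeR) ranged from -1.09 without mutant 1 to -0.53 without mutant 2.

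The calcitonin family receptors are *Calcr*, the calcitonin receptor, which also forms amylin receptors, and *Calcrl*, which forms receptors for calcitonin gene-related peptide and adrenomedullin and is abundant in blood vessels. *Calcrl* (chromosome 2, 84170783 to 84265568, minus strand) was at 28.1, 20.2 and 27.0 CPM in controls and at 37.2, 29.0 and 33.4 CPM in mutants. Every mutant was above every control, with mutant 2 near control 1 (0.40, SE 0.15, adjusted p = 0.431, edgeR). The markers of endothelium summed to 131 to 234 CPM in controls and 205 to 234 CPM in mutants, where control 2 gave the lowest sum as it did for *Calcrl*, and 3 of 12 of them were higher in every mutant. The part of endothelium in the *Calcrl* values was not tested, and without control 2 its log2 fold change was 0.27. *Calcr* was at 149, 137 and 200 CPM in controls and at 146, 115 and 128 CPM in mutants, with mutant 1 within the range of the controls (-0.32, SE 0.15, adjusted p = 0.573, edgeR), and its log2 fold change was -0.14 without control 3. The ratio of *Calcrl* to *Calcr* counts was 0.188, 0.147 and 0.135 in controls and 0.255, 0.251 and 0.261 in mutants, without overlap. The accessory proteins overlapped between the genotypes, with log2 fold changes of -0.066 for *Ramp1* (SE 0.23), -0.086 for *Ramp2* (SE 0.22) and -0.024 for *Ramp3* (SE 0.43). *Ramp2* shares 1103 exonic bases with *Vps25* on the same strand, so its count depends on how shared reads were assigned.

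*Mchr1* (chromosome 15, 81065929 to 81069393, plus strand), the receptor for melanin-concentrating hormone, a feeding-promoting peptide of the lateral hypothalamus, was at 7.71, 10.2 and 11.7 CPM in controls and at 14.2, 11.4 and 14.3 CPM in mutants. Mutant 2 lay below control 3, so the groups overlapped (0.43, SE 0.18, adjusted p = 0.527, edgeR), and without control 1 the value was 0.28. The orexin receptors overlapped too, with log2 fold changes of 0.30 for *Hcrtr1* (SE 0.29) and -0.14 for *Hcrtr2* (SE 0.19). Of the receptors for thyrotropin-releasing hormone, *Trhr* was at 24.7, 25.7 and 22.6 CPM in controls and at 29.2, 27.0 and 26.6 CPM in mutants. Mutants were higher throughout, by 0.18 on the log2 scale (SE 0.10, adjusted p = 0.666, edgeR). *Trhr2* had 1 count in each control and 3, 0 and 3 counts in mutants.

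The receptors for RFamide peptides were *Npffr1*, *Npffr2* and *Qrfpr*. *Npffr1*, the receptor for the gonadotropin-inhibitory peptides made from *Npvf*, was at 1.14, 1.45 and 1.15 CPM in controls and at 0.825, 1.13 and 1.13 CPM in mutants. Mutants 2 and 3 were only just below control 1, and the log2 fold change was -0.27 (SE 0.36, adjusted p = 0.882, edgeR), or -0.14 without either control 2 or mutant 1. *Npffr2*, which binds neuropeptide FF (0.39, SE 0.25), and *Qrfpr*, which binds QRFP (-0.34, SE 0.33), overlapped between the genotypes.

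Most of the receptors with the highest CPM overlapped between the genotypes. *Adcyap1r1*, the PAC1 receptor of the peptide PACAP, was at 507, 659 and 500 CPM in controls and at 486, 472 and 545 CPM in mutants. Only control 2 stood above the mutants (-0.15, SE 0.12, adjusted p = 0.772, edgeR), and without it the log2 fold change was -0.0067. *Vipr1* and *Vipr2*, which bind both VIP and PACAP, gave 0.26 (SE 0.47) and -0.24 (SE 0.22). *Ednrb*, an endothelin receptor of astrocytes and endothelium, was at 157, 215 and 176 CPM in controls and at 139, 164 and 228 CPM in mutants. Mutant 3 was highest and mutant 1 lowest, and the log2 fold change of -0.047 (SE 0.19, adjusted p = 0.975, edgeR) turned positive in 3 of the 6 fits without 1 sample. Astrocyte markers summed to 4611, 7730 and 5768 CPM in controls and 4920, 5582 and 7249 CPM in mutants, so the highest sum in each genotype was in the same sample as the highest *Ednrb*. *Ednra*, the endothelin receptor of vascular smooth muscle, gave 0.31 (SE 0.18).

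Levels per kilobase of exon are a rough scale between genes, since the length joins all annotated exons and amplification bias was not corrected. On this scale *Adcyap1r1* was highest with a mean of 80.0 CPM per kb (71.6 to 99.9 over the 6 females). It was followed by *Ednrb* at 44.5 (34.5 to 56.4), *Calcr* at 37.3 (29.4 to 51.0), *Grpr* at 15.1 (13.3 to 17.0) and *Oxtr* at 8.07 CPM per kb (5.95 to 10.4). The ranges of *Adcyap1r1* and *Ednrb*, of *Calcr* and *Grpr*, and of *Grpr* and *Oxtr* did not overlap. From *Oxtr* downward every gene's range overlapped that of the next in order, and so did those of *Ednrb* and *Calcr*. Exon length was found for 41 of the 42 genes, *Galr3* being the exception. In CPM, 3 genes had a mean over 100 and 12 between 10 and 100, while 22 lay between 1 and 10 and 5 under 1.

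**Figure D3:**
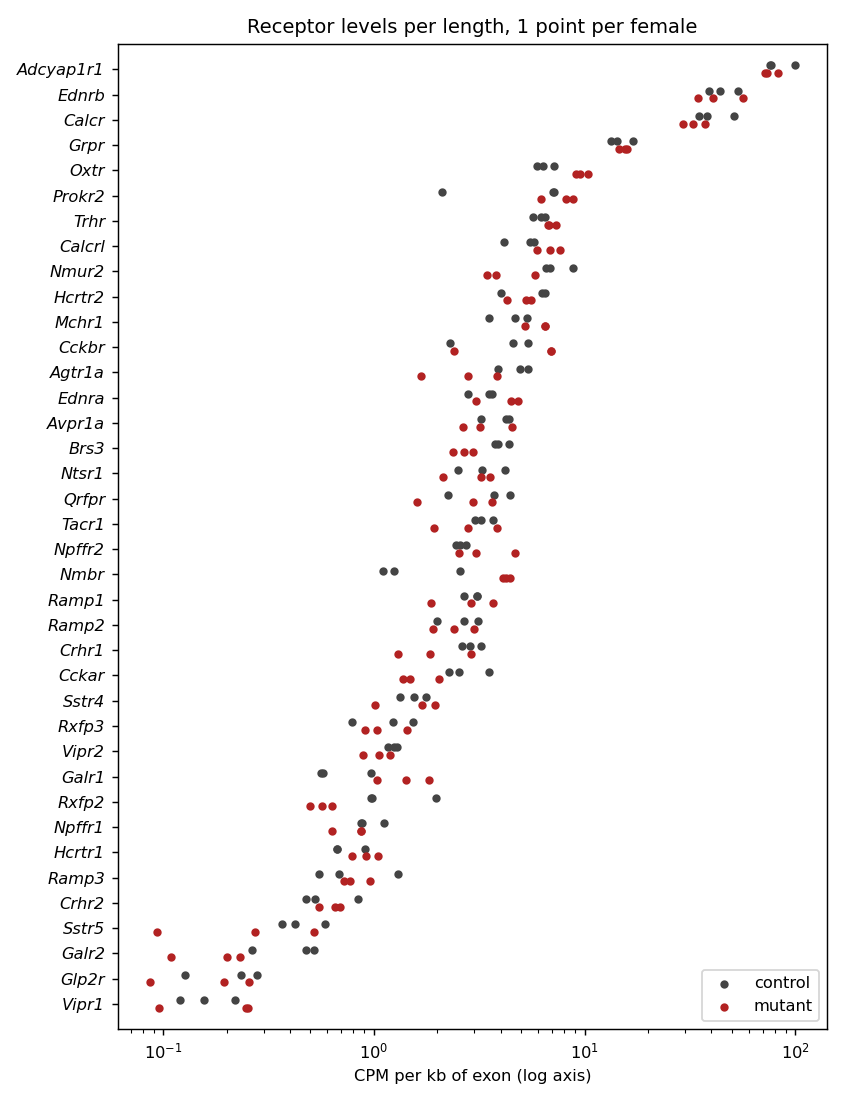
Level of receptor and accessory genes in each female as CPM per kilobase of exon on a log axis, with 1 point per female, controls in grey and mutants in red. *Adcyap1r1*, *Ednrb*, *Calcr* and *Grpr* lead the order, at means of 80.0, 44.5, 37.3 and 15.1 CPM per kb. *Galr3*, which has no length, and *Trhr2*, *Ghrhr* and *Gipr*, which had 0 counts in a library, are not drawn.

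Control 2 stood apart from the other 5 libraries in genes of the pituitary and its stalk, where *Cga* was at 3.26 CPM in control 2 and at 372 to 582 CPM elsewhere, and in *Cck*, which was at 2.91 CPM in control 2 and at 91.3 to 131 CPM elsewhere and made up most of the sum of a list of mammillary neuron markers (8.03 CPM in control 2 and 103 to 142 CPM elsewhere). Among the receptors *Prokr2* (chromosome 2, 132163469 to 132211183, minus strand) shared this pattern. It encodes the prokineticin receptor needed for the development of olfactory bulbs and gonadotropin-releasing hormone neurons. *Prokr2* was at 56.4, 16.8 and 56.7 CPM in controls and at 69.8, 49.3 and 64.5 CPM in mutants. Control 2 alone was low, and the log2 fold change of 0.50 (SE 0.51, adjusted p = 0.846, edgeR) became 0.11 without it. How much of these values follows from the tissue taken was not tested.

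**Figure D4:**
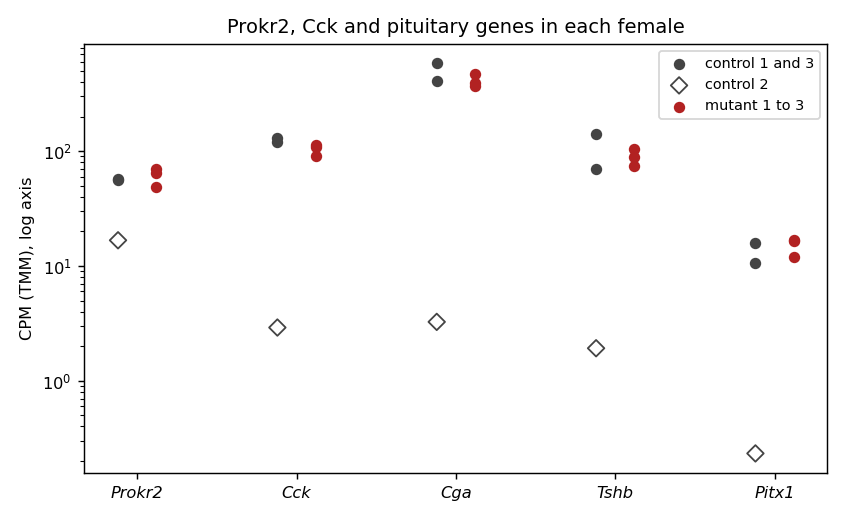
CPM after TMM scaling, on a log axis, of *Prokr2*, *Cck* and the pituitary genes *Cga*, *Tshb* and *Pitx1* in each female, with control 2 as an open diamond, the other controls in grey and the mutants in red. Control 2 is the lowest sample for all 5 genes, from 16.8 CPM for *Prokr2* to 0.233 CPM for *Pitx1*.

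Without control 2, *Nmbr* and *Oxtr* passed the edgeR threshold. Of all genes tested in that fit 46 passed (0.296%), against 18 with all samples. *Nmbr* gave a log2 fold change of 1.85 (adjusted p = 0.0172, edgeR), and *Oxtr* gave 0.65 (adjusted p = 0.0413, edgeR). The share of tested receptors with an unadjusted p-value under 0.05 was then 24.3%, 9 of 37, against 7.73% of all genes tested in that fit. *Galr1* gave 1.34, *Rxfp2* -1.38, *Nmur2* -0.63, *Cckar* -0.82, *Brs3* -0.61 and *Agtr1a* -0.69, with edgeR adjusted p-values from 0.113 to 0.646.

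The remaining receptors overlapped between the genotypes. They were *Ntsr1*, which binds neurotensin (-0.15, SE 0.24), *Sstr4* and *Sstr5*, receptors for somatostatin (0.019, SE 0.29, and -0.67, SE 0.55), *Tacr1*, which binds substance P (-0.22, SE 0.22), and *Glp2r*, the receptor for glucagon-like peptide 2 (-0.29, SE 0.48). *Crhr1*, the receptor for corticotropin-releasing hormone that acts in the stress axis, was at 7.04, 7.97 and 6.46 CPM in controls and at 7.10, 4.52 and 3.20 CPM in mutants. Mutant 1 lay within the controls and the others below (-0.55, SE 0.27, adjusted p = 0.597, edgeR). *Crhr2*, the urocortin receptor, gave 0.031 (SE 0.28). *Ghrhr* and *Gipr*, known from pituitary somatotrophs and from pancreatic islets, had at most 7 and 4 counts in any library. A count of 0 was found for *Ghrhr* in control 1, which allows up to 0.201 CPM, and for *Gipr* and *Trhr2* in mutant 2, which allows up to 0.188 CPM.

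Ligand precursors of these receptors were described from a list of 42 genes, of which 26 passed the filter. This list too was chosen with earlier results of these data known, so its shares are descriptions. None passed the adjusted edgeR threshold, 8 had an unadjusted p-value under 0.05, 5 higher and 3 lower (30.8% against 8.85% of all tested genes), and DESeq2 called 4, against 1.26% of all genes with an adjusted p-value. The genotypes did not overlap in 7 of the 26 (26.9%), 3 higher and 4 lower, against 15.8% of all tested genes. *Nts*, the neurotensin precursor, was at 7.10, 15.3 and 6.96 CPM in controls and at 45.7, 28.7 and 37.1 CPM in mutants. Every mutant was well above the highest control (1.91, SE 0.35, adjusted p = 0.163 with edgeR and 5.63e-09 with DESeq2), and without control 2 it passed the edgeR threshold (2.40, adjusted p = 0.000917). *Prok2*, the ligand of *Prokr2*, was at 4.15, 6.52 and 4.52 CPM in controls and at 1.73, 0.628 and 1.47 CPM in mutants. All mutants were below all controls (-2.01, SE 0.37, adjusted p = 0.0706 with edgeR and 0.000597 with DESeq2).

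*Sst*, which encodes somatostatin, was at 799, 779 and 966 CPM in controls and at 596, 669 and 526 CPM in mutants, with no overlap (-0.51, SE 0.11, adjusted p = 0.163 with edgeR and 0.00290 with DESeq2). *Grp*, the gastrin-releasing peptide precursor, was at 1.47, 2.62 and 1.72 CPM in controls and at 6.60, 4.52 and 3.73 CPM in mutants (1.33, SE 0.32, adjusted p = 0.178 with edgeR and 0.0425 with DESeq2). For *Grp* the ligand differed without overlap while its receptor *Grpr* did not. For *Nts*, *Prok2* and *Sst* the tested receptors *Ntsr1*, *Prokr2*, *Sstr4* and *Sstr5* likewise overlapped between the genotypes, with *Sstr5* at 4 to 22 counts. Other receptors of these peptides, *Sstr1*, *Sstr2*, *Sstr3*, *Ntsr2* and *Prokr1*, were not on the receptor list. *Nmb*, the neuromedin B precursor, was higher in all mutants, as *Nmbr* was (0.39, SE 0.19, adjusted p = 0.596, edgeR). It shares 163 exonic bases with *Sec11a* on the same strand. *Trh*, the thyrotropin-releasing hormone precursor, was lower in all mutants, while *Trhr* was higher (-0.51 for *Trh*, SE 0.26, adjusted p = 0.605, edgeR). *Tac1*, the substance P precursor, was at 50.9, 60.0 and 40.1 CPM in controls and at 36.96, 28.1 and 38.6 CPM in mutants (-0.55, SE 0.17, adjusted p = 0.355, edgeR). *Tac1* also marks the ventromedial nucleus, and mutant 3 lay just under control 3 in it. *Grp* is likewise on the list of dorsomedial markers, *Prok2* and *Nms* are on the suprachiasmatic list, and *Trh* is on the paraventricular list. *Adm* is on a list of markers of tanycytes of the third ventricle. How much of these ligand values follows from the tissue taken was not tested. *Nms*, the neuromedin S precursor (1.09, SE 0.44), *Adm*, the adrenomedullin precursor (1.26, SE 0.50), and *Qrfp* (1.42, SE 0.59) overlapped between the genotypes, with edgeR adjusted p-values of 0.497, 0.514 and 0.519. Single samples moved these values, to 0.69 for *Nms* without mutant 1, to 1.95 without control 1 and 0.79 without mutant 1 for *Adm*, and to 2.19 without control 2 and 0.84 without mutant 3 for *Qrfp*.

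**Figure D5:**
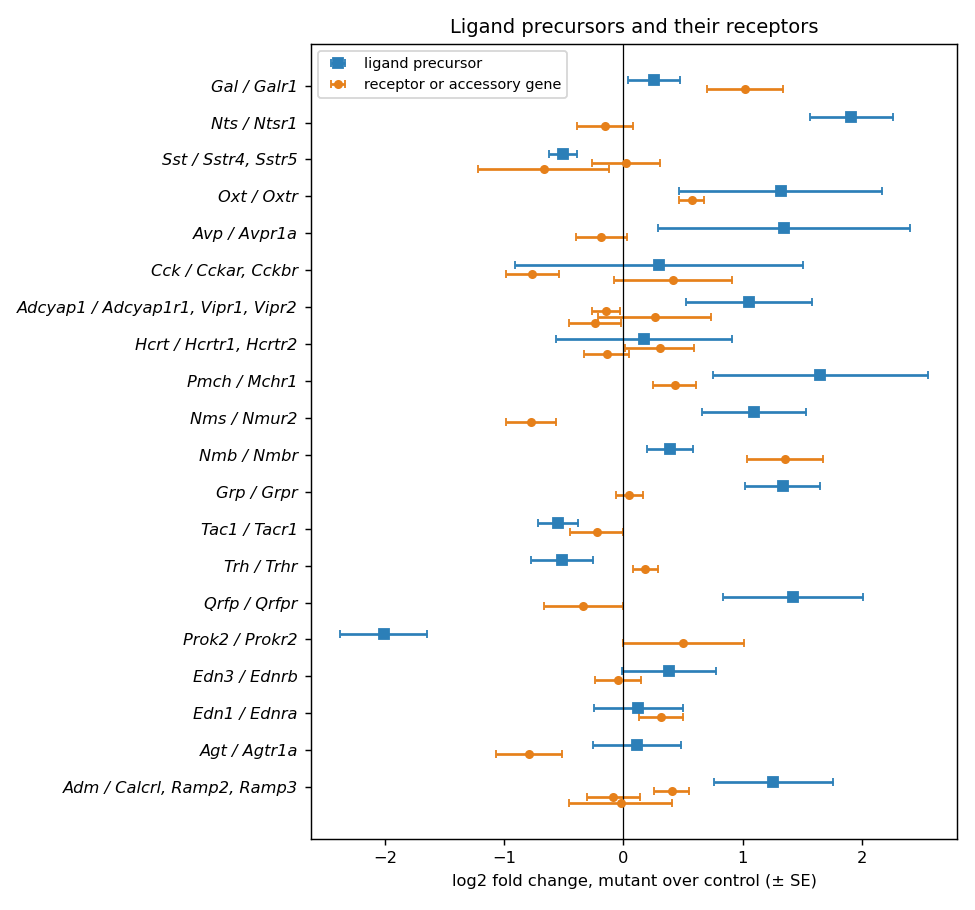
Log2 fold change of mutant over control, with bars of 1 standard error from edgeR's fit, for ligand precursors (blue squares) and the receptor or accessory genes that bind their peptides (orange circles), with 1 precursor per line. For *Prok2* and *Nts* the precursor lies far from 0, at -2.01 and 1.91, and *Prokr2* and *Ntsr1* at 0.50 and -0.15, while for *Nms* and *Nmur2* the values are 1.09 and -0.78.

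Genes of receptor coupling and desensitization, a list of 39 G protein subunits, adenylyl cyclases, phospholipases, receptor kinases, arrestins, RGS proteins and proteins that assist receptors (*Crcp*, *Mrap2*, *Gprasp1* and *Gprasp2*) in the tables, gave 3 unadjusted p-values under 0.05, 7.69% against 8.85% of all tested genes. With edgeR and with DESeq2, 0 of them passed the adjusted threshold. *Gnai1*, an inhibitory G protein subunit, was at 651, 691 and 522 CPM in controls and at 508, 473 and 483 CPM in mutants (-0.35, SE 0.11, adjusted p = 0.337, edgeR). *Gnaz*, a related inhibitory subunit found mainly in neurons, was at 102, 107 and 118 CPM in controls and at 84.6, 92.7 and 87.1 CPM in mutants (-0.31, SE 0.086, adjusted p = 0.275, edgeR). All mutants lay below all controls for both subunits. *Rgs4*, which shortens G protein signals, was at 342, 319 and 259 CPM in controls and at 409, 369 and 354 CPM in mutants, without overlap (0.30, SE 0.11, adjusted p = 0.453, edgeR), and at 0.19 on the log2 scale without control 3. The median log2 fold change of the 39 was -0.078, and 15.4% of them did not overlap between the genotypes, against 15.8% of all tested genes.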

How the data were processed

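RNA from microdissected ARC of 3 control and 3 mutant females was amplified with a kit not stated to keep strand, and sequenced as single-end 50 bp reads. The authors mapped the reads with TopHat2 2.1.0 and counted those on exons with HTSeq 0.6, according to the submitters' processing notes, which also list DESeq2 1.14.1. The deposited values are raw counts per gene symbol without normalization. The build is mm9 in the labels. Positions and exon lengths are those of GENCODE for NCBIM37, matched by symbol, and promoters are those of RefSeq for GRCm38.p6.

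Mutants were compared with controls with edgeR 4.0.16 in R 4.3.3, using the quasi-likelihood test with robust dispersions, TMM normalization, the default filter on low counts and Benjamini-Hochberg adjustment over 15236 genes with a threshold of 0.05. The log2 fold changes are mutant over control, and a standard error is the size of the log2 fold change divided by the square root of the F statistic. The alternatives were RLE normalization, DESeq2 1.42.0, limma 3.58.1 with voom, filters of 1 count or more in any sample or of 10 or more in all, the replicate number as a block, and leaving out every sample in turn. The tests were tested on simulated data. The receptor genes and the other lists were chosen with earlier results of these data known. Values in every sample are given for receptors with an unadjusted p-value under 0.05, without overlap between genotypes, among the 5 highest in CPM or among the 3 largest differences each way, and *Crhr1*, *Grpr* and *Cckbr* were added after their values were seen. Ligand precursors and coupling genes are named where the unadjusted p-value is under 0.05, and *Nmb* and *Trh* were added after their values were seen. Correlations of receptors with marker lists were left out, since control 2 stands apart. The chi-square statistic per degree of freedom between samples was 6.60 to 29.6, so no library was a copy of another.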

Additional observations from a re-analysis of the deposited data

How the results depend on the processing

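The number of receptor genes past the adjusted threshold, 0 with edgeR, was 4 with DESeq2, 2 when any gene with 1 count was kept (*Nmbr* and *Oxtr*), and 0 when RLE factors, limma voom or a filter of 10 counts in all samples was used. Leaving out 1 sample gave between 0 and 2, the latter without control 2. Over all genes, 18 passed with edgeR, 191 with DESeq2 and 106 with any count kept, and between 7 and 46 when 1 sample was left out. Ligand precursors numbered 4 with DESeq2, 2 with any count kept and between 0 and 1 without 1 sample. Of the 37 receptors tested with all samples, 13 to 19 did not overlap when 1 sample was left out. The share of all genes tested that did not overlap was then 22.5% to 27.6%. The count of 19 came without mutant 1, where this share was 27.2%. *Ednrb* reversed to 0.086 without control 2, 0.097 without mutant 1 and 0.0042 without mutant 2, and lay between -0.27 and 0.097 over the fits that left out 1 sample. The cause of these shifts was not tested, except that fewer samples overlap less often by construction. Deviations from the genotype means correlated at 0.313, 0.0487 and 0.0189 between same-numbered samples, so the replicate numbers were not taken as pairs. With the replicate block 123 genes passed, with 1 receptor gene, *Oxtr* (adjusted p = 0.0481, edgeR), and 1 coupling gene, *Rgs8*. Without control 2, *Rxfp3* was at 0.17 and *Sstr4* at -0.082, the opposite of their direction in all samples. Apart from *Ednrb*, the genes named by the rule on p-values, overlap and levels kept their direction under these alternatives, and in 19 fits a gene that missed the threshold in edgeR's test passed, those of *Oxtr*, *Nmbr*, *Nmur2*, *Rxfp2*, *Prok2*, *Nts*, *Sst*, *Grp* and *Pgr*. At most 28 counts a library lie behind *Galr2*, *Galr3*, *Sstr5*, *Vipr1*, *Npffr1*, *Ramp3* and *Glp2r*, which limits their values.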
